A study of Rattus norvegicus with 15 samples.

Results

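Retinas of MSC-treated rats were compared with retinas of healthy rats, which the study called NT (no treatment). The MSC and NT libraries were chosen by their labels and made up 6 of the 15 libraries of the series, with 3 per group. Every rat was a wild type Sprague-Dawley animal of postnatal week 12, and the retinas were taken at day 31 after transplantation. The NT rats were labelled healthy. The MSC rats had received human mesenchymal stem cells (MSCs), grown from Wharton's jelly of the umbilical cord, by intravitreal injection, and then sodium iodate (NaIO3) at 40 mg/kg into the circulation. Rats with these xenografts were also given dexamethasone at 2 mg/kg before surgery and cyclosporin at 10 mg/kg/day afterwards. The sham rats, which served as a second reference, had received NaIO3 and an injection of the cell-free vehicle. The labels listed no immunosuppressants for sham rats, and the methods did not say whether they received them. Another group, MSCEPO, was used only in fitting the model. Its rats had received MSCs modified to express erythropoietin, with the same NaIO3 and immunosuppressants as the MSC rats. MSC and NT retinas therefore differed in NaIO3, injection, cells and immunosuppression at once, and the shares of these in any MSC against NT difference cannot be told apart. The labels and the methods gave different cell densities for the injection, so the dose of cells is not stated here. The study called the libraries of a group biological replicates, and the labels did not tie each library to a rat.

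NaIO3 is an oxidant that kills the retinal pigment epithelium (RPE), the cell layer that feeds the photoreceptors, renews their outer segments and recycles the visual chromophore, and the photoreceptors are lost after it. In rods, light activates the G protein transducin and through it a phosphodiesterase, and cation channels of the outer segment then close. Müller glia, the radial glia that span the retina, answer injury with a gliotic program led by the intermediate filament protein GFAP, and microglia are the resident macrophages of the retina. The healthy eye keeps lymphocytes out and expresses little MHC class II, the molecule that presents peptides to CD4+ T cells. Mesenchymal stem cells are given to the eye for the factors that they secrete.

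The values were rlog values, which are log2 expression levels after a regularisation that pulls noisy genes toward their mean. A total of 15431 of the 20375 listed genes passed the filter on low values, a mean rlog equal to a linear value of about 10 over the 6 MSC and NT libraries. A gene was called a differentially expressed gene (DEG) where the limma test gave an adjusted p under 0.05 (Benjamini-Hochberg over all genes tested) and the group means differed by more than 1 on the log2 scale. Read depth is unknown, since the deposited values hold no counts. The exact permutation test of 3 against 3 libraries cannot go below p = 0.1 for a single gene, so calls rest on the fit across genes. The SEs given are those of this fit, which pools a gene's spread over the NT, sham, MSC and MSCEPO libraries and moderates it across genes. The SEs, and the p-values with them, can be too small where the MSC libraries are widely spread and too large where these are close together.

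The 3 MSC libraries were further from each other than the NT libraries were. The distance between libraries over all tested genes (Euclidean, rlog) was 27.5 to 35.1 among NT libraries. MSC1 lay 62.5 from MSC2 and 82.5 from MSC3, while MSC2 and MSC3 were 39.7 apart. MSC1 was also the library furthest from healthy retina, at 114 to 125 from the NT libraries against 65.5 to 87.2 for MSC2 and MSC3. Results that rest on MSC1 or on NT3 are given with and without them below. The retinal identity of the tissue was clear in every NT, sham and MSC library: the rod transducin gene Gnat1 was at 15.54 or above, and the Müller glia enzyme gene Glul was at 15.22 or above. Genes of the lens differed between libraries within both groups. The mean of the 16 lens genes, relative to the NT mean, was -1.38, 0.85 and 0.53 in NT1 to NT3 and 2.52, 0.14 and 1.37 in MSC1 to MSC3, so the groups overlapped. No lens gene was called by limma, and at an unadjusted p under 0.05 there was 1, which was higher. The cornea gene Krt12 was likewise lowest in NT1, at 6.73, and between 8.79 and 9.21 in the other NT and MSC libraries.

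MSC-treated retina showed 1003 DEGs against healthy retina, of which 84.9% were higher. A total of 852 genes were higher in MSC (5.52% of the genes tested) and 151 were lower (0.979%). The counts of list members called, given below, are to be read against these shares. Among the genes that rose were many of antigen presentation, complement, interferon response, leukocytes and reactive glia. Among those that fell were many of rods and of the visual cycle, and the largest falls were those of Lamb3, Rgr, Myoc and Gnat1. Every one of the 1003 DEGs had all 3 MSC libraries on one side of all 3 NT libraries. Such separation was common, since the MSC libraries lay above the NT libraries for 23.0% of the genes tested and below them for 21.2%. Without NT3 the number of genes called higher was 509, and without MSC1 it was 597; the number called lower was 126 and 163. With both libraries left out, 358 were higher and 142 lower.

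**Figure D1:**
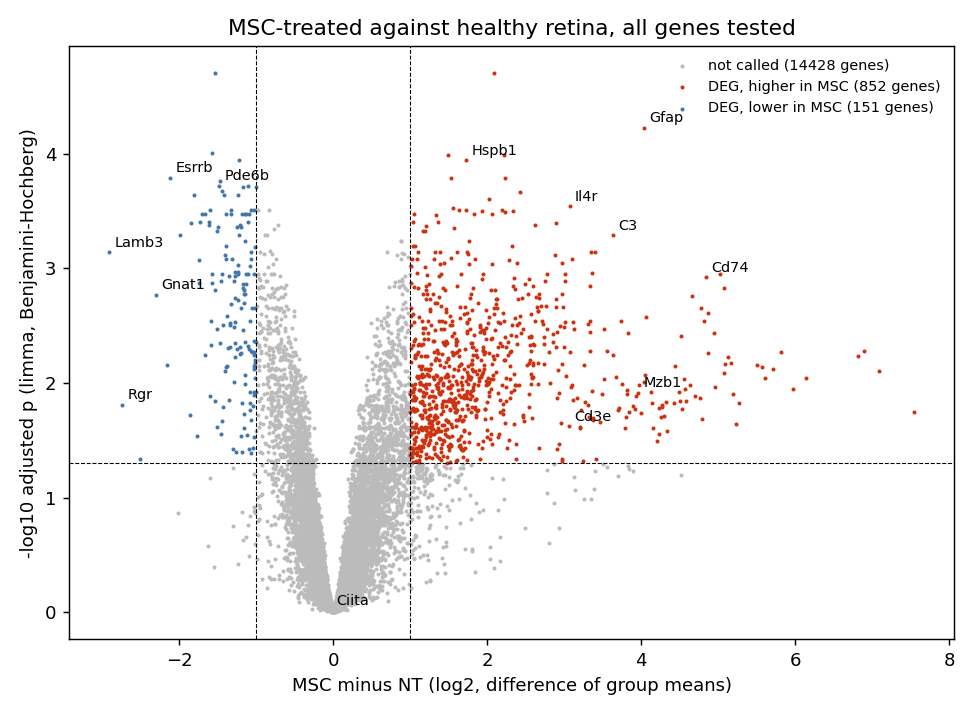
Difference of group means (MSC minus NT, log2, x axis) against -log10 of the limma adjusted p (y axis) for the 15431 genes tested, with dashed lines at the call thresholds. The 852 genes called higher reach further from 0 than the 151 called lower, up to 7.54 against -2.91.

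Rod genes fell along the phototransduction cascade. Of 21 rod phototransduction genes tested, 14 were called lower and 0 higher, and all 21 had their MSC libraries below their NT libraries (21.2% of all genes did). The median difference of the list was -1.17, against 0.00 over all genes tested. In this bulk tissue, fewer rods and less RNA per rod cannot be told apart. Gnat1, the alpha subunit of rod transducin, fell from 17.91, 18.04 and 17.83 to 15.54, 15.63 and 15.69. The groups did not overlap, and the difference was -2.31 ± 0.33 (SE, n = 3 per group; limma, adjusted p = 0.0017), a 4.95-fold lower level. Within the cascade, the phosphodiesterase subunit gene Pde6b was at 15.07, 15.12 and 15.15 in NT and at 13.73, 13.54 and 13.61 in MSC. Its difference of -1.49 had an SE of 0.13 (limma, adjusted p = 1.90e-04). The 3 MSC libraries were close to each other for these genes, in contrast to the immune genes described below.

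The members that end the light response fell as well. Gnb5, a G protein beta subunit that works with the deactivating RGS protein of photoreceptors, differed by -1.10, and the photoreceptor kinase gene Grk1 by -1.39. Sag, the rod arrestin gene, differed by -1.16. The cation channel subunit gene Cnga1 was called lower at -1.14, while its partner Cngb1 passed the adjusted p at -0.82 but not the fold threshold. Gngt1, the gamma subunit of rod transducin, had the smallest difference of the list at -0.60 (limma, adjusted p = 0.105). Slc24a1, the rod exchanger that extrudes calcium, differed by -1.22 ± 0.14 (SE).

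Transcription factors that define rods were among the genes called lower. Of 12 photoreceptor transcription factor genes, 4 were called lower (33.3%, against 0.979% of all genes tested), 0 higher and 8 not called, with a median of -0.53. Esrrb, a nuclear receptor needed for rod survival, had 11.35, 11.37 and 11.41 in NT and 9.12, 9.31 and 9.34 in MSC, a difference of -2.12 ± 0.17 (SE; limma, adjusted p = 1.62e-04). Nrl, which specifies rod fate, differed by -1.44 ± 0.13 (SE), and its partner Crx by -1.10 ± 0.14 (SE). Nr2e3, which represses cone genes in rods, was just past the fold threshold at -1.02, and its call was lost without MSC2 (-0.93) and without NT1 (-0.99). Among 17 outer segment and cilium genes, 5 were called lower (29.4%) and 0 higher, with 7 lower without MSC1 and 6 without NT3. Reep6 differed by -1.51, Rom1 by -1.37, Unc119 by -1.16 and Rp1 by -1.03. At the photoreceptor synapse, 1 of 16 genes was called (6.25%), the calcium-binding protein gene Cabp4, which differed by -1.28 ± 0.21 (SE). The list's median was -0.50, and 13 of the 16 genes had their MSC libraries below the NT libraries.

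**Figure D2:**
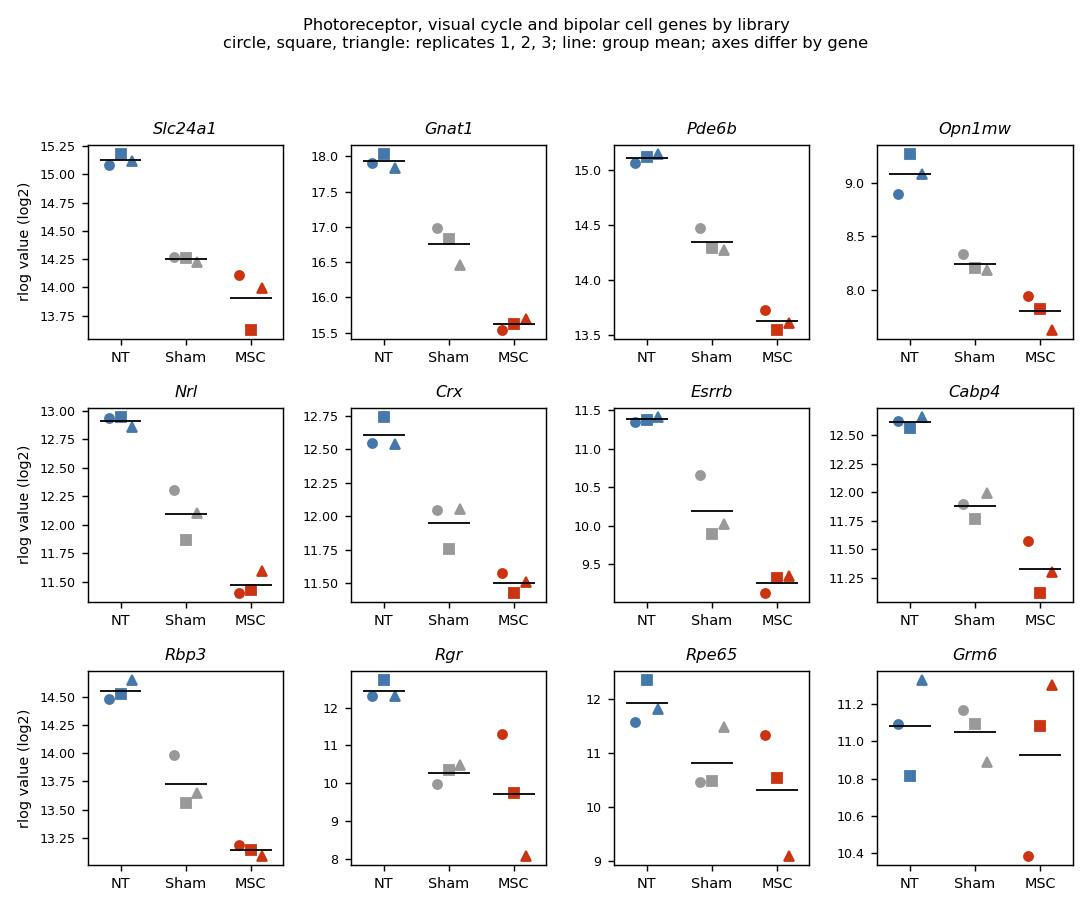
rlog values (log2, y axis, with a separate scale per gene) of 12 retinal genes in the NT, sham and MSC libraries, with a line at each group mean. Rod genes such as Gnat1 and Nrl are low in all 3 MSC libraries alike, whereas Rgr and Rpe65 differ between MSC libraries and Grm6 overlaps between groups.

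Cone phototransduction genes did not move as one group. Of 11 such genes, 2 were called lower (18.2%, against 0.979% of all genes tested) and 1 higher (9.09%, against 5.52%). The median was -0.22 (-0.14 without NT3). The middle-wavelength opsin gene Opn1mw fell from 8.90, 9.27 and 9.08 to 7.95, 7.83 and 7.63, by 1.28 (SE 0.16; limma, adjusted p = 0.0011). Arr3, the cone arrestin, was called lower at -1.15, and this call was lost without MSC1 (-0.74, under the fold threshold) and without any one NT library (adjusted p = 0.056 to 0.0953). Gnb3, a transducin beta subunit that ON bipolar cells share with cones, was higher by 1.26 ± 0.19 (SE; limma, adjusted p = 0.0024). It had already reached 12.61 to 13.07 in sham retina, against 12.85 to 13.08 in MSC.

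The promoters of 2 of the genes that fell are shown because they hold the letters TAATCC, the core of the element that the factor CRX binds, on either strand. They come from the RefSeq promoter table for GRCr8 and cover the 250 bases before the annotated start, 5′ to 3′ on the strand of the gene, with the matched letters in capitals. Of the 33469 promoters in that table, 6.34% hold TAATCC, so a match alone is not unusual. The promoters of Pde6b, Nrl and Rdh12, which were also called lower, hold no match, whereas that of Cd68, called higher, does. Rbp3 encodes the retinoid carrier between photoreceptors and RPE. Its promoter holds 1 match, 103 to 98 bases before the start, and that of Cabp4 holds 2, from 101 to 96 and from 70 to 65, besides a TTCNNNGAA match from 195 to 187.

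Rbp3 (chr16:9273537-9273786, plus strand): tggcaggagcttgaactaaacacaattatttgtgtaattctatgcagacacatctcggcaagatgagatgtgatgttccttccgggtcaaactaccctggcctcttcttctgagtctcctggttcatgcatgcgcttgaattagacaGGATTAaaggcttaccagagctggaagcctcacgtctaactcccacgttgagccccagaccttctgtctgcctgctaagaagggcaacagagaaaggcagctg

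Cabp4 (chr1:210862633-210862882, minus strand): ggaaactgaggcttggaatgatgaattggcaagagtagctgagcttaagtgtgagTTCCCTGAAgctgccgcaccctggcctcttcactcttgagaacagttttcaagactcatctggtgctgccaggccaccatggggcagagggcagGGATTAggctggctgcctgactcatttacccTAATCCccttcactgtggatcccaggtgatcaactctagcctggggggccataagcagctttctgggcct

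The visual cycle fell unevenly across the MSC libraries. Of 20 visual cycle and RPE genes tested, 6 were called lower and 0 higher, with a median of -0.94. These were Rgr, Slc16a8, Rdh5, Rdh12, Stra6 and Rbp3. Genes that photoreceptors express were even: Rbp3 had 14.48, 14.53 and 14.66 in NT and 13.19, 13.14 and 13.09 in MSC (difference -1.42 ± 0.13, SE), and the retinol dehydrogenase gene Rdh12 differed by -1.67 ± 0.17 (SE). Genes of the RPE were not. Rgr, an opsin of RPE and Müller glia, stood at 12.30, 12.74 and 12.30 in NT and at 11.29, 9.75 and 8.09 in MSC. Its SD was 0.25 in NT and 1.60 in MSC. The difference of -2.74 had a pooled SE of 0.63 (limma, adjusted p = 0.0155), and the call was lost without NT2 (limma, adjusted p = 0.0587). Rpe65, the isomerase of the visual cycle, had 11.58, 12.36 and 11.82 in NT and 11.33, 10.54 and 9.09 in MSC. Its libraries did not overlap between the groups, but the difference of -1.60 had an SE of 0.54 and was not called (limma, adjusted p = 0.0671). Slc16a8, the lactate transporter of the RPE, was lower by 2.15 (SE 0.42; adjusted p = 0.007), with 8.53, 7.80 and 6.54 in MSC.

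The MSC libraries differed among themselves in the RPE list, and MSC1, the library furthest from healthy retina in MHC class II and lymphocyte genes, was the nearest to it here. Relative to the NT mean, the list stood at -0.37, -1.12 and -1.75 in MSC1, MSC2 and MSC3, and at -0.01, 0.37 and -0.36 in NT1 to NT3. MSC1 therefore reached the level of the lowest NT library. The number of members called lower was 10 without MSC1 and 3 without NT2. How much RPE was carried along with each dissected retina was not measured. The pigment enzyme gene Tyr stood at 9.77, 9.72 and 7.36 in NT and at 10.10, 8.21 and 8.01 in MSC and overlapped between the groups, and its part in these differences was not tested. Myoc and Serpine3, also among the 10 largest falls, had the same order of MSC libraries. Myoc, a gene of the trabecular meshwork, differed by -2.51 (SE 0.76; limma, adjusted p = 0.0463), and its call was lost without any one of MSC2, MSC3 or the NT libraries (adjusted p = 0.0951 to 0.143). Serpine3, a serpin gene, differed by -1.86, and its call was lost without any one library except MSC1 (adjusted p = 0.0523 to 0.0654).

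Calls were few among genes of inner retinal neurons, as they were among all genes tested (5.52% higher and 0.979% lower). Of 15 ON bipolar and 16 amacrine and horizontal cell genes, 0 were called by limma. Of 15 ganglion cell genes, 1 was called, and it was lower (6.67%). At an unadjusted p under 0.05, 1 ON bipolar gene was higher and 2 lower, and 4 amacrine and horizontal cell genes were lower. Of the 15 ganglion cell genes, 5 were lower and 0 higher at that level. Over all 15431 genes tested, 2705 were higher and 1862 lower at that level. All 3 MSC libraries lay below all 3 NT libraries for 7 of them (21.2% of all genes did). Grm6, the glutamate receptor of ON bipolar cells, stood at 11.09, 10.81 and 11.33 in NT and at 10.39, 11.08 and 11.30 in MSC, with overlap. Gad1, which makes GABA in amacrine and horizontal cells, was at 12.68 to 12.80 in NT and at 11.49, 12.32 and 12.36 in MSC, a difference of -0.68 ± 0.25 (SE) that missed the threshold (adjusted p = 0.0894). Opn4, which encodes the melanopsin of light-sensitive ganglion cells, was called at -1.13 ± 0.15 (SE; limma, adjusted p = 0.0014). The ganglion cell genes Slc17a6 and Pou4f2 passed the adjusted p at -0.80 and -0.68 (limma, 0.0178 and 0.0421) but not the fold threshold. Rbpms, a marker of all ganglion cells, differed by -0.01. MSC1 was the lowest library of the 6 in all 3 of these lists, at -0.46, -0.76 and -0.60 relative to the NT mean for ON bipolar, amacrine and horizontal, and ganglion cells.

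**Figure D3:**
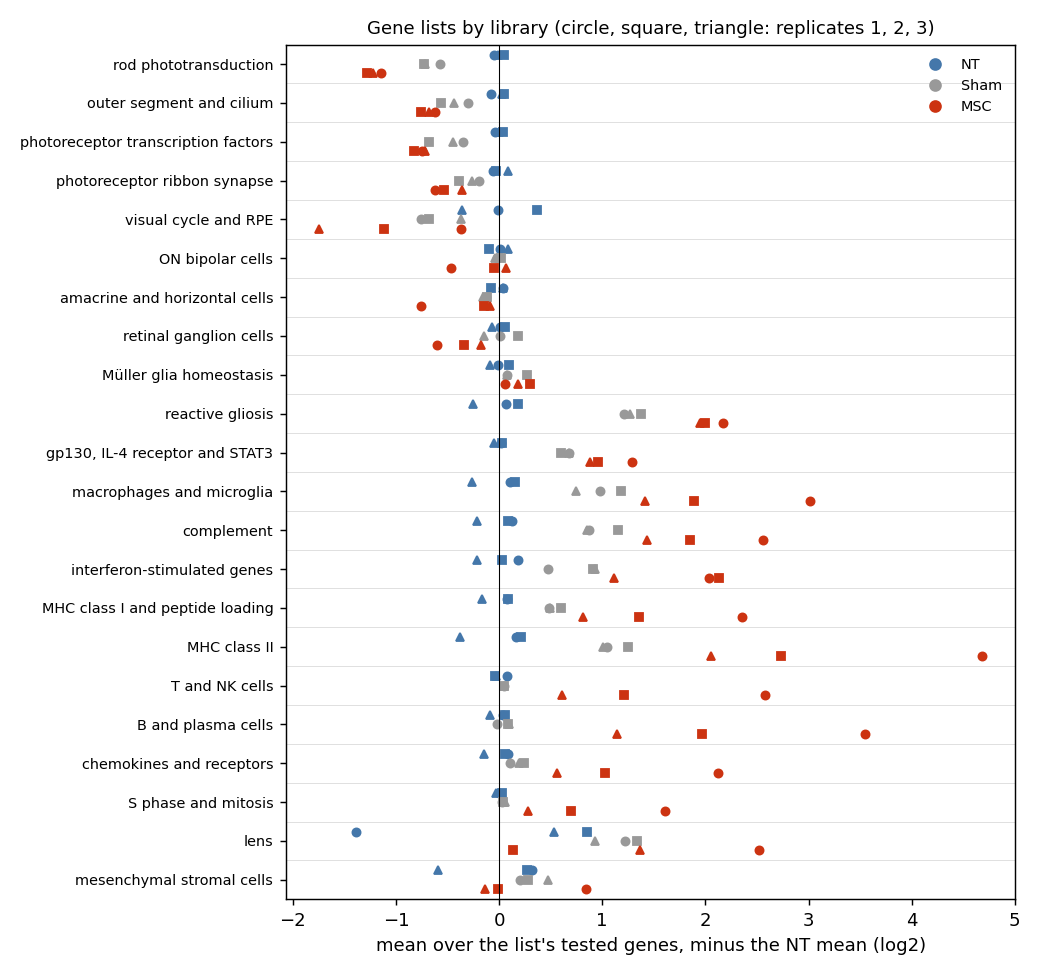
Mean over each gene list's tested members in every NT, sham and MSC library, relative to the NT mean (log2, x axis), for 22 lists (y axis). Rod and gliosis lists hold the 3 MSC libraries close together, whereas MHC class II and lymphocyte lists run from MSC1 at the top to MSC3, and lens libraries overlap between NT and MSC.

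Gliosis genes rose by similar amounts in the 3 MSC libraries. Of 20 gliosis genes, 19 were called higher and 0 lower (5.52% of all genes were called higher), and 16 to 18 were called when any 1 MSC or NT library was left out. The list stood 2.17, 2.00 and 1.95 above the NT mean in MSC1, MSC2 and MSC3. Gfap rose from 9.64, 10.08 and 9.43 in NT to 13.33, 13.99 and 13.94 in MSC. The difference of 4.04 ± 0.26 (SE; limma, adjusted p = 5.90e-05) was a 16.4-fold higher level, and the MSC libraries were far above every NT library. The acute phase gene Lcn2 was higher by 2.43 ± 0.21 (SE), the protease inhibitor gene Timp1 by 2.29, and the small heat shock protein gene Hspb1 by 1.72 ± 0.13 (SE). Edn2, the endothelin that injured photoreceptors release, had 5.32, 5.32 and 5.15 in NT and 6.63, 6.62 and 6.65 in MSC. Serpina3n, an astrocyte reactivity marker, was an exception to the evenness, with 11.73, 11.05 and 12.91 in MSC against 8.36 to 8.85 in NT. Its difference of 3.37 had an SE of 0.84, and the call was lost without MSC3 or any one NT library (limma, adjusted p = 0.0576 to 0.0706).

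Cytokine signalling genes rose beside those of gliosis. Of 19 genes of gp130, IL-4 receptor and STAT3 signalling, 8 were called higher and 0 lower, with a median of 0.86 that was 0.54 without MSC1. The list's means were 1.29, 0.96 and 0.88 in MSC1 to MSC3. Il4r, the alpha chain of the interleukin-4 receptor, stood at 8.43, 8.21 and 8.03 in NT and at 11.37, 11.13 and 11.38 in MSC, a difference of 3.07 ± 0.29 (SE; limma, adjusted p = 2.88e-04). Stat3 rose by 1.19 ± 0.13 (SE), and Socs3, the feedback inhibitor of STAT3 signalling, by 2.39 ± 0.30 (SE). Among the ligands, the gp130 cytokine gene Lif was higher by 1.36 ± 0.25 (SE). The Müller homeostasis list had a median of 0.12 (0.22 without MSC1 and 0.03 without NT3). Of its 15 genes, 2 were called higher (13.3%, against 5.52% of all genes tested) and 1 lower (6.67%, against 0.979%). Clu, a secreted chaperone, rose by 1.75 ± 0.21 (SE), and the lipid carrier gene Apoe by 1.50 ± 0.30 (SE). The carbonic anhydrase gene Ca14 was called lower at -1.50 ± 0.16 (SE), and Glul, the glutamine synthetase gene, differed by -0.23 with overlap between the groups.

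Antigen presentation on MHC class II held the largest rises among genes with a symbol. Of 10 class II genes, 9 were called higher, with a median of 3.63. Cd74, the invariant chain that guides class II to its peptides, was at 9.76, 9.83 and 8.60 in NT and at 15.88, 13.88 and 12.97 in MSC. Every MSC library lay above every NT library, and the difference was 4.85 ± 0.64 (SE; limma, adjusted p = 0.0012), a 28.8-fold higher level. The rat class II genes RT1-Da, RT1-Ba, RT1-Db1 and RT1-Bb followed at 4.81, 4.77, 4.66 and 4.52, and reads of these similar genes may be shared between them. RT1-Ba had 7.64, 7.89 and 6.71 in NT and 14.16, 11.75 and 10.65 in MSC. Ciita, the transactivator that class II transcription requires, did not follow, with 7.88, 8.04 and 7.74 in NT and 8.98, 7.59 and 6.99 in MSC, a difference of -0.04 (SE 0.45; adjusted p = 0.971). The list as a whole stood 4.68, 2.73 and 2.05 above the NT mean in MSC1 to MSC3, and 7 members were called without MSC1 and 7 without NT3.

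Class I genes and their peptide supply rose by less. Of 13 genes, 9 were called higher and 0 lower, with a median of 1.48. B2m, the light chain of class I, rose from 12.44, 12.46 and 11.73 to 15.66, 14.27 and 13.62, by 2.30 ± 0.42 (SE; limma, adjusted p = 0.0053). Nlrc5, the class I transactivator, was higher by 2.22 ± 0.35 (SE), the immunoproteasome gene Psmb8 by 2.55 ± 0.49 (SE), and the peptide transporter gene Tap1 by 1.48 ± 0.30 (SE). Without MSC1 6 members were called, and without NT3 also 6.

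Interferon-stimulated genes rose with 24 of 28 members called higher, 0 lower and a median of 1.73. Without MSC1 20 members were called, and without NT3 18. This list did not put MSC1 on top, with means of 2.04, 2.14 and 1.11 in MSC1 to MSC3. The antiviral GTPase gene Mx1 was at 6.53, 6.10 and 5.93 in NT and at 9.91, 10.40 and 8.24 in MSC, a difference of 3.34 ± 0.53 (SE; limma, adjusted p = 0.0029). The guanylate-binding protein gene Gbp2 was higher by 3.34 ± 0.46 (SE), and Irf9, a subunit of the interferon-activated transcription complex, by 1.39 ± 0.17 (SE). Irf7, the regulator of interferon genes, was higher by 1.74 ± 0.35 (SE).

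The promoters of Gbp2 and B2m are shown because they hold the letters GAAANNGAA, an interferon-response-like pattern, on either strand, which 8.12% of the promoters in the RefSeq table hold. Those of Mx1 and Irf9 hold no match for it, whereas that of Arr3, called lower, does. In Gbp2 the pattern lies 30 to 22 bases before the start. In B2m it lies from 150 to 142, beside a match from 136 to 128 for GGGANTTTC, an NF-kappaB-like pattern that 0.953% of the promoters hold, and these do not overlap. The 250 bases before the start are given in GRCr8, 5′ to 3′ on the strand of the gene, with all matches in capitals.

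Gbp2 (chr2:234005477-234005726, plus strand): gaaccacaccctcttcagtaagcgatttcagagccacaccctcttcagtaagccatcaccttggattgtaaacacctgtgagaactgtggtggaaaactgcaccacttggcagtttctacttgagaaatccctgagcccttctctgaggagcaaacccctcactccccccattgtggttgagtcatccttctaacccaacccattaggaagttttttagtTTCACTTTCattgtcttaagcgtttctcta

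B2m (chr3:129549080-129549329, plus strand): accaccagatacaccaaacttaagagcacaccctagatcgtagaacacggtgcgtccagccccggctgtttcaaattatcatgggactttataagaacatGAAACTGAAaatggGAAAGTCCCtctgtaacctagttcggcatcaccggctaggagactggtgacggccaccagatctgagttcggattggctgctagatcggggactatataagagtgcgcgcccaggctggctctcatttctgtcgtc

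Macrophage, microglia and complement genes rose together. Of 23 macrophage and microglia genes, 19 were called higher and 0 lower, with a median of 2.07. Without MSC1 17 were called and the median was 1.62, and without NT3 14 were called. Ptprc, the CD45 gene of all leukocytes, had 6.88, 6.80 and 6.37 in NT and 12.15, 10.49 and 9.59 in MSC, the largest difference of the list at 4.06. Cd68, a lysosomal protein gene of phagocytes, stood at 5.97, 6.05 and 5.63 in NT and at 9.95, 8.59 and 8.05 in MSC, a difference of 2.98 ± 0.42 (SE; limma, adjusted p = 0.0017). Aif1, which encodes IBA1, was higher by 2.62 ± 0.41 (SE), and Trem2, the lipid receptor of microglia, by 1.84 ± 0.22 (SE). Of 18 complement genes, 13 were called higher and 0 lower, with a median of 2.06. Without MSC1 10 were called and the median was 1.61, and without NT3 9 were called. C3, the central component, rose from 9.48, 8.90 and 9.33 to 13.72, 12.87 and 12.04, by 3.64 ± 0.40 (SE; limma, adjusted p = 5.16e-04), a 12.4-fold higher level. Serping1, the C1 inhibitor gene, was higher by 3.35 ± 0.40 (SE), and the recognition component gene C1qa by 2.97 ± 0.37 (SE). Of the 11 neutrophil genes listed, 2 passed the filter on low values, and 1 of these, Csf3r, was called at 1.05; without MSC1 its difference was 0.91.

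Lymphocyte genes were low in healthy retina and higher in all 3 MSC libraries. Of 27 T and NK cell genes tested, 14 were called higher and 0 lower, with a median of 1.32, and of 15 B and plasma cell genes, 10 were called higher and 0 lower, with a median of 2.21. Cd3e, a chain of the T cell receptor complex, stood at 4.44, 4.06 and 4.11 in NT and at 9.67, 6.48 and 5.65 in MSC. The groups did not overlap, and the difference was 3.06 ± 0.78 (SE; limma, adjusted p = 0.0238). Cd79a, a chain of the B cell receptor complex, had 4.35, 3.98 and 4.17 in NT and 9.90, 7.87 and 6.65 in MSC, a difference of 3.97 ± 0.84 (SE; limma, adjusted p = 0.0103). Pou2af1, a B cell transcriptional coactivator, and Mzb1, a chaperone of antibody-secreting cells, were higher by 4.32 and 3.96. The shared cytokine receptor chain gene Il2rg was higher by 3.34 ± 0.61 (SE), and the T cell kinase gene Lck by 2.37 ± 0.50 (SE). Cd8a, the co-receptor of cytotoxic T cells, had 3.56 to 3.78 in NT and 5.98, 4.78 and 4.41 in MSC. Gzmb, which encodes their granule protease granzyme B, did not pass the filter on low values.

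These lymphocyte calls depended on single libraries. T and NK cell genes called higher numbered 8 without MSC1, 7 without NT1 or NT2, 5 without NT3 and 22 without MSC3. B and plasma cell genes called higher numbered 9 without MSC1, 6 without NT2 and 5 without NT3. Relative to the NT mean, the T and NK list stood at 2.57, 1.21 and 0.61 in MSC1 to MSC3, and the B and plasma list at 3.54, 1.97 and 1.15. Cd3e and Cd79b lost the call without any one NT library (limma, adjusted p = 0.0607 to 0.0771), and Cd8a lost it without MSC1 (0.93) and without NT3 (adjusted p = 0.0517). In a fit of the MSC and NT libraries alone, Cd3e, Cd79b and Cd8a also lost the call (limma, adjusted p = 0.0761, 0.0636 and 0.0532). Pou2af1 lost it without NT2 (adjusted p = 0.0503) or NT3 (0.0538).

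Chemokine genes rose with 8 of 24 tested members called higher and 0 lower, and 3 were called without NT3 and 13 without MSC3. Cxcl13, which attracts B cells, had 7.56, 7.37 and 7.25 in NT and 13.26, 10.53 and 9.43 in MSC, a difference of 3.68 ± 0.75 (SE; limma, adjusted p = 0.0089) or 12.8-fold. Cxcl10, an interferon-induced attractant of activated T cells, stood at 5.29, 5.22 and 4.95 in NT and at 8.48, 8.06 and 6.70 in MSC. Cxcl9, of the same receptor, had 11.15 in MSC1 against 6.57 and 5.95 in MSC2 and MSC3, and its call at 3.41 (adjusted p = 0.046) was lost without any one NT library (adjusted p = 0.105 to 0.134). The leukocyte integrin gene Itgal was higher by 3.31 ± 0.53 (SE), and Icam1, its ligand on endothelium, by 1.95 ± 0.33 (SE). In all, 5 of 19 endothelium and leukocyte adhesion genes were called higher and 0 lower, and 3 without NT2. Mcpt1, a mast cell protease gene, was among the 10 largest rises of genes with a symbol, with 4.21 to 4.40 in NT and 8.94, 10.00 and 6.60 in MSC. Its call was lost without any one library except MSC3 (adjusted p = 0.0841 to 0.111).

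**Figure D4:**
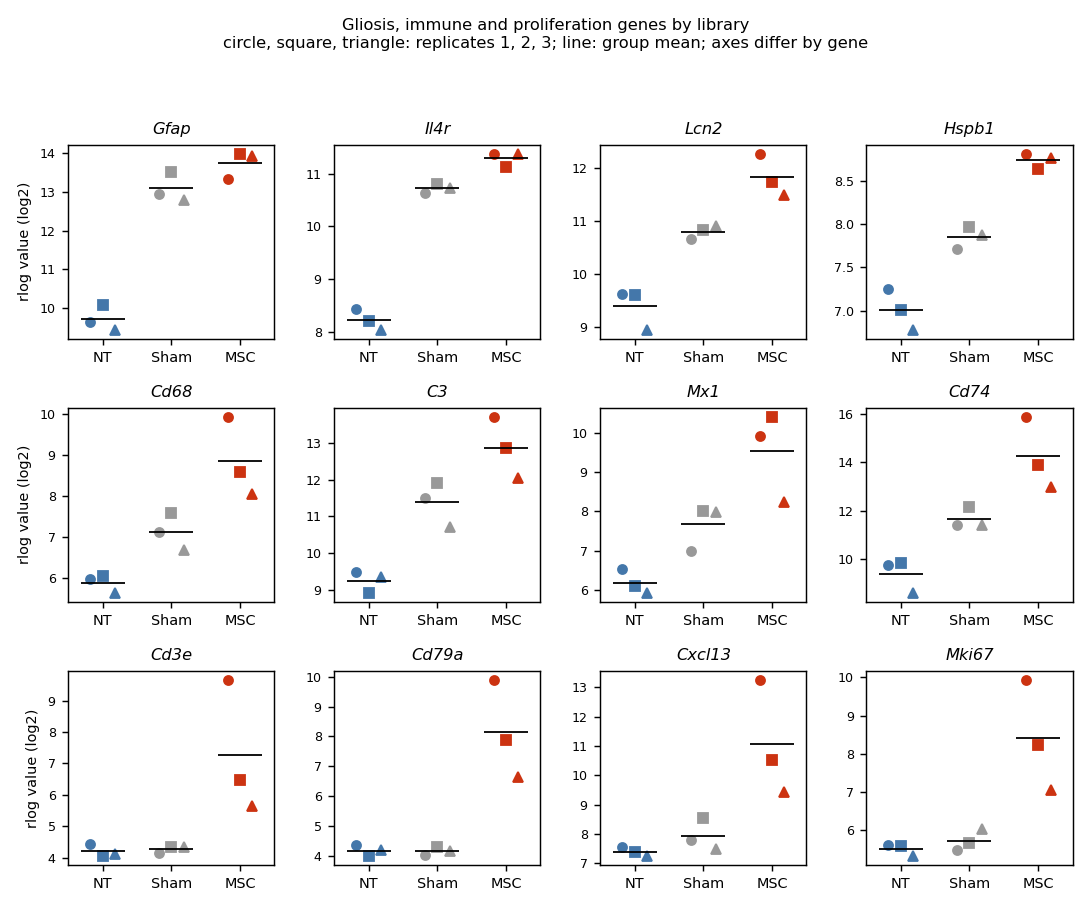
rlog values (log2, y axis, with a separate scale per gene) of 12 gliosis, immune and proliferation genes in the NT, sham and MSC libraries, with a line at each group mean. Gfap and Il4r are high in all 3 MSC libraries and in sham, whereas Cd3e and Cd79a in sham lie between 4.01 and 4.34 and are spread from 5.65 to 9.90 in MSC.

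Inflammasome and cell death genes were also higher. Of 15 necroptosis and pyroptosis genes, 11 were called higher and 0 lower, and all 15 had their MSC libraries above their NT libraries (23.0% of all genes did). The count was 6 without MSC1 and 7 without any one NT library. Casp1, the caspase that matures interleukin-1, stood at 5.64, 5.65 and 5.49 in NT and at 9.12, 7.42 and 6.81 in MSC, a difference of 2.19 ± 0.46 (SE; limma, adjusted p = 0.0103). The sensor gene Nlrp3 was higher by 1.52 ± 0.24 (SE), and the adaptor gene Pycard by 1.96 ± 0.39 (SE). Of 20 TNF and NF-kappaB genes, 9 were called higher and 1 lower, with 4 higher without NT3, 5 without MSC1 or NT2 and 14 without MSC3. Bcl3, a nuclear IkB protein gene, rose by 2.24 ± 0.18 (SE; limma, adjusted p = 1.62e-04), with 8.52, 8.06 and 8.04 in MSC against 5.85 to 6.09 in NT. Tnfaip3, the A20 inhibitor of NF-kappaB, was the member called lower, at -1.03 ± 0.28 (SE), and no member was called lower without any one of MSC2, MSC3 or the NT libraries.

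Proliferation genes rose in part. Of 19 S phase and mitosis genes, 5 were called higher and 0 lower, and 2 without MSC1, NT1 or NT2, 3 without MSC2, 1 without NT3 and 10 without MSC3. Mki67, a marker of cycling cells, had 5.61, 5.58 and 5.31 in NT and 9.94, 8.22 and 7.05 in MSC, a difference of 2.90 ± 0.65 (SE; limma, adjusted p = 0.0135), with an adjusted p of 0.0533 without NT3. Top2a, the topoisomerase of dividing cells, was higher by 2.93 ± 0.64 (SE). In both genes MSC1 was the highest and MSC3 the lowest MSC library. This order was common, since MSC1 was the highest for 717 of the 852 genes called higher and MSC3 the lowest for 746.

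Genes of mesenchymal stromal cells and matrix gave few calls (5.52% of all genes were called higher and 0.979% lower). The injected cells were human and the reads were quantified against rat sequence, so these values do not measure the grafted cells. Of 12 mesenchymal stromal genes, 0 were called by limma (3 higher and 1 lower at an unadjusted p under 0.05) and 1 was called without NT1, with a median of 0.24 that was -0.15 without MSC1 and -0.12 without NT3. The rat gene Nt5e, which encodes the MSC surface marker CD73, stood at 11.09, 11.19 and 11.12 in NT and at 10.56, 10.42 and 10.32 in MSC, a difference of -0.70. Of 27 matrix genes, 0 were called higher by limma and 1 lower, whereas 4 were called higher without MSC3. At an unadjusted p under 0.05, 12 were higher and 1 lower, and 17 had all 3 MSC libraries above all 3 NT libraries (23.0% of all genes did). The median was 0.77, and 0.45 without MSC1. The gene called lower was Lamb3, a laminin beta chain gene and the largest fall of all tested genes with a symbol. It stood at 8.84, 9.03 and 9.34 in NT and at 6.10, 6.25 and 6.14 in MSC, a difference of -2.91 ± 0.34 (SE; limma, adjusted p = 7.20e-04) or 7.51-fold. The collagen gene Col1a1 had 7.67, 8.16 and 6.48 in NT and 10.14, 9.21 and 8.35 in MSC and missed the threshold (adjusted p = 0.0521).

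Among the genes called, the MSC libraries were spread more widely for the rises than for the falls. The call itself depends on spread, and the called falls were smaller than the called rises (medians -1.24 and 1.67). Small falls with a wide spread could therefore miss the call, and the part of this rule in the contrast was not tested. Single genes went the other way, such as Rgr among the falls (SD 1.60 in MSC) and Il4r among the rises (SD 0.14 in MSC). Among the 852 genes called higher, the median SD of the 3 MSC libraries was 0.725 against 0.151 in NT, and MSC1 was the highest library for 717 of them (84.2%), whereas it was the highest of the 3 for 46.0% of all genes tested. MSC3 was the lowest of the 3 for 746. The median over these genes was 2.38, 1.56 and 1.12 above the NT mean in MSC1, MSC2 and MSC3. Among the 151 genes called lower, the median SD was 0.146 in MSC and 0.117 in NT, and the medians were -1.18, -1.28 and -1.29.

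**Figure D5:**
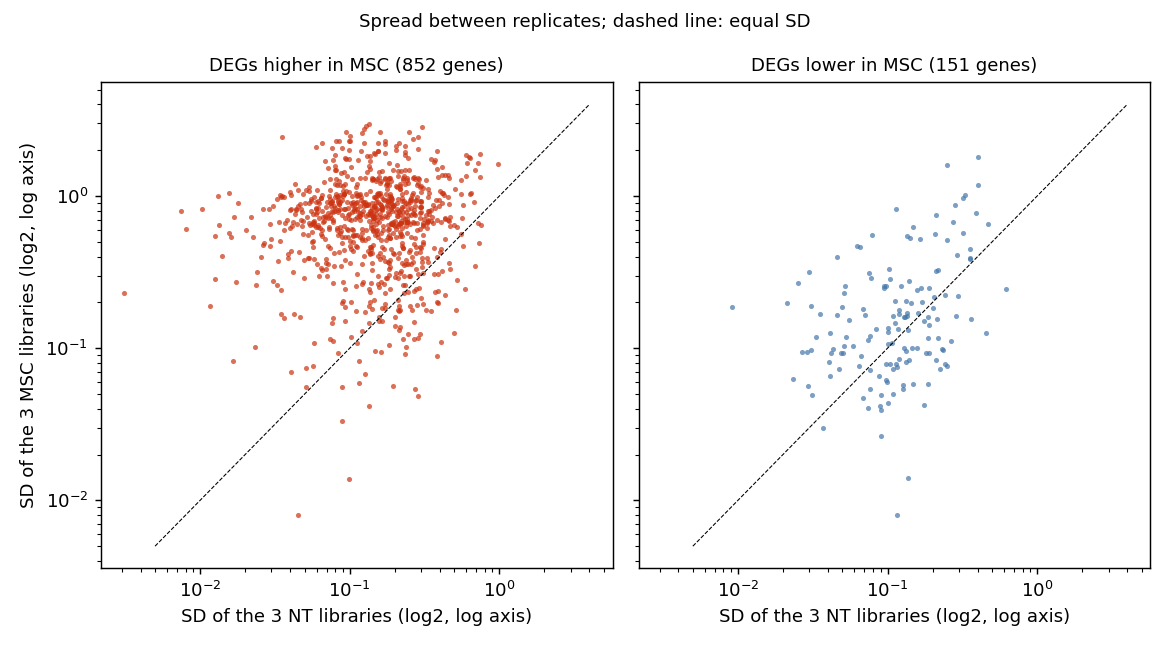
SD of the 3 MSC libraries (y axis) against SD of the 3 NT libraries (x axis), both in log2 units on log axes, for the 852 genes called higher (left) and the 151 called lower (right). Of the genes called higher, 92.3% lie above the dashed line of equal SD, with medians of 0.725 and 0.151, whereas 62.9% of those called lower do, with medians of 0.146 and 0.117.

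Genes with no symbol in the files held many of the largest rises. Of 936 such genes tested, 123 (13.1%) were higher and 2 lower, whereas 729 of 14495 genes with a symbol (5.03%) were higher. They made up 24 of the 25 largest rises, led by ENSRNOG00000030332 at 7.54 and ENSRNOG00000049829 at 7.08. No table used here names them.

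The levels in sham retina lay between healthy and MSC-treated retina for some lists and at the healthy level for others. Both comparisons share the NT libraries, so the values are given side by side. For gliosis the median was 1.17 in sham against NT and 2.00 in MSC against NT, and for rod phototransduction -0.66 and -1.17. Gfap had 12.95, 13.53 and 12.80 in sham, which overlapped with MSC, and Il4r had 10.63, 10.80 and 10.74, below the MSC libraries. For the T and NK cell list the medians were 0.02 and 1.32, and for the B and plasma cell list 0.01 and 2.21. Cd79a was at 4.01, 4.30 and 4.14 in sham, within the range of healthy retina, and Cd3e was at 4.16, 4.33 and 4.34.

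The direct test of MSC against sham, in which both groups had received NaIO3, called 13 genes (0.0842% of those tested), 11 higher and 2 lower. These groups differed in the cells and, by the labels, in immunosuppression, and the shares of these cannot be told apart. All 11 higher genes had no symbol. Myh6, a cardiac myosin heavy chain gene, was lower with 7.76, 8.07 and 7.65 in MSC against 8.79, 9.29 and 9.32 in sham, a difference of -1.31 ± 0.17 (SE; limma, adjusted p = 0.0198), and NT was at 9.02, 9.43 and 9.25. The other was RGD1560925, at -1.13 ± 0.16 (SE; adjusted p = 0.0312). At an unadjusted p under 0.05, 1428 genes were higher and 583 lower. Hspb1 was higher in MSC than in sham with an adjusted p of 0.0383, but by 0.89 and thus under the fold threshold. Of the 579 list genes tested, 0 were called by limma in this test, and at an unadjusted p under 0.05 215 were higher and 58 lower. Differences from sham were nevertheless large for lymphocyte genes, such as 3.99 for Cd79a (adjusted p = 0.106) and 2.99 for Cd3e, with the spread between MSC libraries in their errors. The count of genes called higher depended on MSC3, since it was 570 without this library, against 1 to 2 without any other MSC or sham library, and the count called lower was 0 to 3 across these.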

How the data were processed

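Retinal mRNA was measured in 15 libraries, of which the 3 MSC and 3 NT libraries are described here. The authors made stranded mRNA libraries, quantified the reads with Salmon 1.1.0 against the rat transcriptome and genome (Rnor_6.0), summed transcripts to genes and normalised them with DESeq2. The deposited values are on the log2 scale, after the regularised-log (rlog) transformation by the authors, which shrinks the differences of low genes. No counts were used, so depth is unknown and precision rests on the 3 libraries per group.

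Here, limma 3.58.1 (R 4.3.3; eBayes with trend) was fitted to the rlog values of 12 libraries (NT, sham, MSC and MSCEPO) with group means, for genes with a mean value of about 10 or more on the linear scale over the MSC and NT libraries, and p-values were adjusted over all 15431 genes by Benjamini-Hochberg. DEGs were genes with a difference over 1 (log2) at an adjusted p under 0.05. The fit was tested on simulated data in which each gene had the same spread in every group. That test therefore does not cover the unequal spread of the MSC and NT libraries. The members and the 35 gene lists were chosen with earlier results of these data known, and no set test was run. Of 628 listed symbols, 610 were found and 579 tested; Jchain was not found, and Epo did not pass the filter. Genes named were the 10 largest rises and 10 largest falls with a symbol and separate libraries, up to 4 members with the smallest adjusted p per list, a fixed set of markers, and for MSC against sham the 5 largest in each direction; members named besides these were chosen after their values were seen, and some genes that the rule names are not reported here. A table of the whole series repeated the same 15 columns and was not used. Values of 20375 genes were listed, 2591 of them without a symbol.

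Promoters were matched by symbol or by a unique synonym for 78.7% of the tested genes with a symbol and for 74.2% and 79.1% of those called higher and lower. Since fewer than 80% matched, the comparison of motif shares between these sets is void, and single promoters are shown instead.

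Alternatives were other filters, no fold threshold, fits of the compared groups alone or of all 15 libraries, a replicate block, no trend, array weights, median centring, quantile normalisation and leaving out each library.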

Additional observations from a re-analysis of the deposited data

How the results depend on the processing

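The call thresholds and single libraries moved the counts most. For MSC against NT, the adjusted p alone, without the fold threshold, called 1525 genes higher and 872 lower. A fit of the MSC and NT libraries alone called 724 higher and 144 lower. In that fit 10 named genes lost the call, among them Cd3e, Cd79b, Cd8a, Cxcl9, Rgr, Myoc and Arr3. Leaving out 1 library gave 509 (without NT3) to 1123 genes higher and 126 to 163 lower, and leaving out MSC1 and NT3 together, an alternative chosen after seeing the data, gave 358 higher. For MSC against sham, genes called higher were 31 and genes lower 1 in a fit of these groups alone, 85 higher with array weights and 17 higher with median centring. The fit of all 15 libraries called 0 higher and 0 lower (limma; 1480 and 589 at an unadjusted p under 0.05). Leaving out 1 library gave 1 to 570 higher and 0 to 3 lower; at an unadjusted p under 0.05 these fits had 987 to 1849 genes higher and 375 to 632 lower. The cause of these changes was not tested.

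Of 167 named genes, 112 were called, 75 of these kept the call under every alternative and 0 changed direction. Quantile normalisation moved the median of all genes by -0.10, and 78.0% of its calls were higher, against 84.9%; the adjusted p alone gave 63.6%, and leaving out MSC1 and NT3 together 71.6%. With it, 10 of the 21 rod genes and 6 of the 15 necroptosis and pyroptosis genes were called, against 14 and 11. The median of the neurotrophic list changed sign with it, from 0.19 to -0.03.

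Same-numbered MSC and NT libraries had deviations that correlated at 0.202, -0.132 and 0.432, so the numbers were not taken as pairs. A fit with the replicate block called 886 genes higher and 146 lower in MSC against NT, and 25 higher in MSC against sham.

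With 3 libraries per group, no counts and shrunken low values, small differences in lymphocyte and other low genes were not resolvable here, and genes under the filter were not tested.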

Other observations

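Some genes of glycolysis were lower. Of 21 glycolysis and lactate genes, 2 were called lower (9.52%, against 0.979% of all genes tested) and 0 higher. All 3 MSC libraries lay below all 3 NT libraries for 16 of them (21.2% of all genes did). Hk2, the hexokinase of photoreceptors, stood at 13.90, 13.94 and 14.19 in NT and at 11.90, 12.05 and 12.09 in MSC, a difference of -2.00 ± 0.22 (SE; limma, adjusted p = 5.16e-04). The lactate transporter gene Slc16a1 differed by -1.09 ± 0.11 (SE), and by -0.99, under the fold threshold, without NT2. Gapdh, often used as a reference gene, was at 14.64, 14.91 and 14.54 in NT and at 13.87, 14.03 and 13.84 in MSC, a difference of -0.79 that passed the adjusted p (0.0086) but not the fold threshold.

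Trophic factor genes were called in both directions. Of 19 tested, 3 were called higher (15.8%, against 5.52% of all genes tested) and 1 lower (5.26%, against 0.979%). Bdnf, a neurotrophin gene, fell from 7.77, 7.75 and 7.71 in NT to 5.77, 6.36 and 6.26 in MSC, by 1.62 (SE 0.17; limma, adjusted p = 3.96e-04), and sham stood at 6.65, 6.64 and 6.68. Fgf2, a survival factor gene of stressed photoreceptors and Müller glia, had 5.96, 6.34 and 5.98 in NT and 8.07, 8.10 and 8.32 in MSC, a difference of 2.07 ± 0.43 (SE). Cntf, a ligand of a gp130 receptor, was called higher with 8.05, 8.27 and 7.78 in NT and 9.11, 9.26 and 9.02 in MSC, and differed by 0.97, under the fold threshold, without NT3. The third was Lif. Of 20 antioxidant genes, 3 were called higher (15%) and 0 lower. These were Hmox1 by 1.73, the metallothionein gene Mt2A by 1.74 and the cystine transporter gene Slc7a11 by 1.01. The Slc7a11 call was lost without any one library except NT1 (limma, adjusted p = 0.0619 to 0.141).

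Of 13 BCL2 family genes tested, 1 was called higher (7.69%, near the 5.52% of all genes tested). This was the leukocyte survival gene Bcl2a1, with 4.97, 4.88 and 4.79 in NT and 9.09, 7.23 and 6.30 in MSC. Without MSC3, 4 were called. Of 16 immediate early genes, 1 was called higher (6.25%, also near that share), Myc, by 1.38 ± 0.20 (SE). Without MSC1 2 were called higher and 2 lower, and without MSC2 3 higher. Of 11 genes of cornea, ciliary body and outflow tissue, 1 was called, Myoc. Of 3 erythrocyte genes tested, 0 were called by limma and 0 passed an unadjusted p under 0.05, and the haemoglobin gene Hbb overlapped between NT (7.28, 6.49 and 5.90) and MSC (7.73, 6.73 and 6.23).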
